A study of Arabidopsis thaliana with 25 samples.

Results

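The root transcriptomes of phf1 plants grown in low P soil were compared with those of phf1 plants grown in high P soil, in 3 libraries against 3. These 6 libraries were taken by their genotype and soil labels from the 25 Arabidopsis root libraries of the series, and 18606 of the 27206 counted genes passed the filter on low counts. The phf1 line is a mutant in the Col-0 background, and its allele is not named in the sources used here. The low P soil came from field plots that had been given 0 kg of P per ha each year, and the high P soil from plots given 45 kg. Roots were taken from 8-week-old plants grown in a greenhouse under short days, in pots whose positions were randomized, and every pot held field soil with its own microorganisms. The libraries came from separate pots, with soil from 3 low P plots (1, 4 and 7) and from 3 high P plots (3, 6 and 9). The counts name the group of a library but not its plot, so within a group the libraries carry the letters A, B and C without order, and no library could be paired with another. The remaining phf1 libraries (3 from medium P soil and 2 from low+P pots, where low P soil was supplied with 12.6 mg of P during growth) entered the fit to estimate the spread, and Col-0, the wild type, was used for 1 comparison below.

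Inorganic phosphate (Pi) enters root cells through transporters of the PHT1 family in the plasma membrane. PHF1 is a protein of the endoplasmic reticulum that these transporters need in order to leave it, so a phf1 root takes up less Pi than a wild-type root. When Pi is short, the transcription factors PHR1 and PHL1 switch on the phosphate starvation response (PSR), in which roots make more transporters, secrete phosphatases and replace membrane phospholipids with galactolipids and sulfolipids. SPX proteins sense the Pi status of the cell and hold PHR1 back when Pi is plentiful. The comparison asks which genes of a root that is impaired in Pi uptake differ between unfertilized and long-term fertilized soil.

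The 6 libraries held 2773753 to 5668833 counts, so a gene at 1 count per 1000000 counts (CPM) rests on a few reads. CPM values here are scaled by TMM factors, which correct for differences in RNA composition. The libraries did not separate by soil. On the first principal component of the 11 phf1 libraries, which held 41.1% of the variance, low P A (-96.3) and B (-62.9) lay at one end, whereas low P C (58.2) lay beside high P B (82.2), with high P A (-8.82) and C (-24.6) between them. The correlation of log2 CPM across genes was 0.858 to 0.934 between libraries of low P, 0.867 to 0.923 between libraries of high P and 0.809 to 0.944 between libraries of the different soils. None of these libraries agreed within sampling noise with another.

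Of 7 root markers, 6 had counts in all 6 libraries. PYK10, a beta-glucosidase abundant in root ER bodies, was at 1001 to 2050 CPM, and PHO1, which loads Pi into the xylem, was at 317 to 726 CPM. EXPA7, an expansin of root hairs, had no count in 3 of the 6. The median log2 fold change of the 7 was -0.29. The summed level of 25 photosynthesis genes, given as a check for shoot tissue, was 376, 514 and 198 CPM under low P and 3194, 322 and 202 CPM under high P, so high P A stood apart. In a bulk library, fewer cells of a type and less RNA per cell cannot be told apart. PHF1 itself was read in every library at 9.10 to 22.5 CPM (log2 difference -0.12 ± 0.44, SE), which does not test the label, since the allele is not known. PHR1 was at 60.5 to 71.0 CPM under low P and 53.7 to 76.2 CPM under high P (0.05 ± 0.17), and PHL1 at 47.0 to 96.0 CPM against 27.1 to 65.8 CPM (0.37 ± 0.35), with overlap for both. The libraries do not keep strand, and of the genes named and checked PHR1, PAP17, CKX1, EEL, SARD1, SGN3, CDKB2;1, FAR4, LHCB1.3, AT5G39670, AT3G55840 and THA1 overlap a gene on the opposite strand, so their reads are uncertain.

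No gene passed edgeR's quasi-likelihood test at an adjusted p of 0.1 (0 of 18606, 0%), and the smallest adjusted p was 0.999. At an unadjusted p below 0.05 edgeR gave 172 genes higher in low P (0.924%) and 365 lower in low P (1.96%), together 537 or 2.89%. This share was no larger than the threshold itself would give without any difference between the soils. The biological coefficient of variation was 0.386. DESeq2, run on the same counts, called 6 of 18526 genes (0.0324%), 1 higher and 5 lower, and gave 653 at an unadjusted p below 0.05. Low P libraries all lay above high P libraries for 539 genes (2.9%) and all below for 519 (2.79%). That balance depended on the scaling: with plain library totals the counts were 328 above and 660 below, so the share above went from 50.9% to 33.2%. Across all genes tested the median log2 fold change was 0.02, and the median of its size was 0.23. The count at an unadjusted p below 0.05 moved by more than 1.5 times when some single libraries were left out: it was 1670 without low P C, 937 without high P C and 335 without high P B, with 0 called in each case.

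The genes with the smallest p among those lower in low P were led by WRKY70, a transcription factor that acts in salicylic acid signalling. WRKY70 was at 7.03, 11.4 and 15.1 CPM under low P and 57.8, 40.1 and 31.9 CPM under high P. Every high P library was thus at more than double the highest low P library, and the log2 fold change was -1.93 ± 0.33 (SE), with a DESeq2 adjusted p of 0.0019. Leaving out each library in turn kept the log2 fold change between -2.23 and -1.67. PAD4, a lipase-like protein that promotes salicylic acid accumulation, was at 16.9, 29.5 and 35.7 CPM under low P against 64.1, 78.0 and 65.1 CPM under high P (-1.33 ± 0.31), without overlap, and DESeq2 gave it an adjusted p of 0.243.

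COL4, a B-box protein of the CONSTANS-like family, was the gene of this group with the lowest level in low P. It had 2, 5 and 2 counts in the low P libraries and 131, 68 and 72 in the high P libraries, or 0.703, 1.78 and 0.355 CPM against 24.8, 11.03 and 18.1 CPM. The log2 fold change was -4.35 ± 0.83, and the DESeq2 adjusted p was 0.0019. The remaining genes that DESeq2 called lower were AT3G26460, AT5G17350 and AT5G51190. AT3G26460, annotated as a polyketide cyclase and lipid transport protein, was at 11.7 to 15.4 CPM under low P and 23.9 to 33.9 CPM under high P (-1.08 ± 0.21, adjusted p = 0.072 by DESeq2). The uncharacterized gene AT5G17350 was at 1.76, 1.07 and 1.42 CPM under low P and 40.0, 11.2 and 3.27 CPM under high P (-3.66 ± 0.90, adjusted p = 0.0759 by DESeq2). AT5G51190, a DNA-binding protein annotated as integrase-type, was named after its values were seen and averaged 8.44 ± 0.848 CPM (SD) in low P and 81.3 ± 94.1 CPM under high P (-3.26 ± 0.85, adjusted p = 0.0731 by DESeq2), so its high P libraries differed widely among themselves.

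The other genes of this group were also without overlap between the soils, and neither edgeR nor DESeq2 called their low to high P difference in phf1. Low P lay wholly below for 2.79% of all genes, but the choice by smallest p favours such genes. AT2G28400, annotated as a senescence regulator, was at 2.13 to 3.90 CPM under low P and 7.29 to 22.4 CPM under high P (-2.22 ± 0.50). AT5G39670, a calcium-binding EF-hand protein, was at 10.3 to 18.1 CPM against 32.4 to 52.2 CPM (-1.59 ± 0.36). AT1G60095, a mannose-binding lectin, was at 23.9 to 27.7 CPM against 40.7 to 71.2 CPM (-1.08 ± 0.26). For LIL3:2, a light-harvesting-like protein, the groups nearly met, since low P C was at 5.32 CPM and high P C at 5.53 CPM, with high P A and B at 20.3 and 26.9 CPM.

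Among genes higher in low P, AT1G59740, annotated as a major facilitator superfamily transporter, had the smallest p. It was at 212, 142 and 199 CPM under low P and 33.8, 54.3 and 58.1 CPM under high P (1.92 ± 0.43), and was the 1 gene that DESeq2 called higher (adjusted p = 0.0647). NHX4, a cation/proton antiporter of the vacuole, was at 83.0, 58.3 and 66.3 CPM under low P and 35.5, 31.0 and 31.4 CPM under high P (1.08 ± 0.29). BUD2, an enzyme of polyamine synthesis, was at 21.3 to 23.2 CPM against 7.40 to 13.6 CPM (1.20 ± 0.33). CKX1, which degrades cytokinin, was at 44.3, 51.2 and 71.1 CPM under low P and 23.9, 23.4 and 16.1 CPM under high P (1.39 ± 0.43). IRX12, a laccase of lignin formation, was at 86.0 to 194 CPM against 51.0 to 85.3 CPM, so its groups nearly touched. All 10 genes of smallest p on this side had groups that did not overlap, with log2 fold changes from 0.89 for RCP1 to 2.65 for AT1G52560. Low P lay wholly above for 2.9% of all genes, but the choice by smallest p favours such genes, so their separation is a description. AT1G52560 had few reads, with 11, 3 and 41 counts in low P A, B and C and 4, 4 and 2 in high P. Its unscaled counts overlapped, and its CPM were 3.87, 1.07 and 7.27 under low P against 0.759, 0.649 and 0.503 under high P. RCP1, which exports maltose from plastids, is uncertain, because 62.2% of its exonic 50-base stretches also occur elsewhere in the TAIR10.1 genome.

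**Figure D1:**
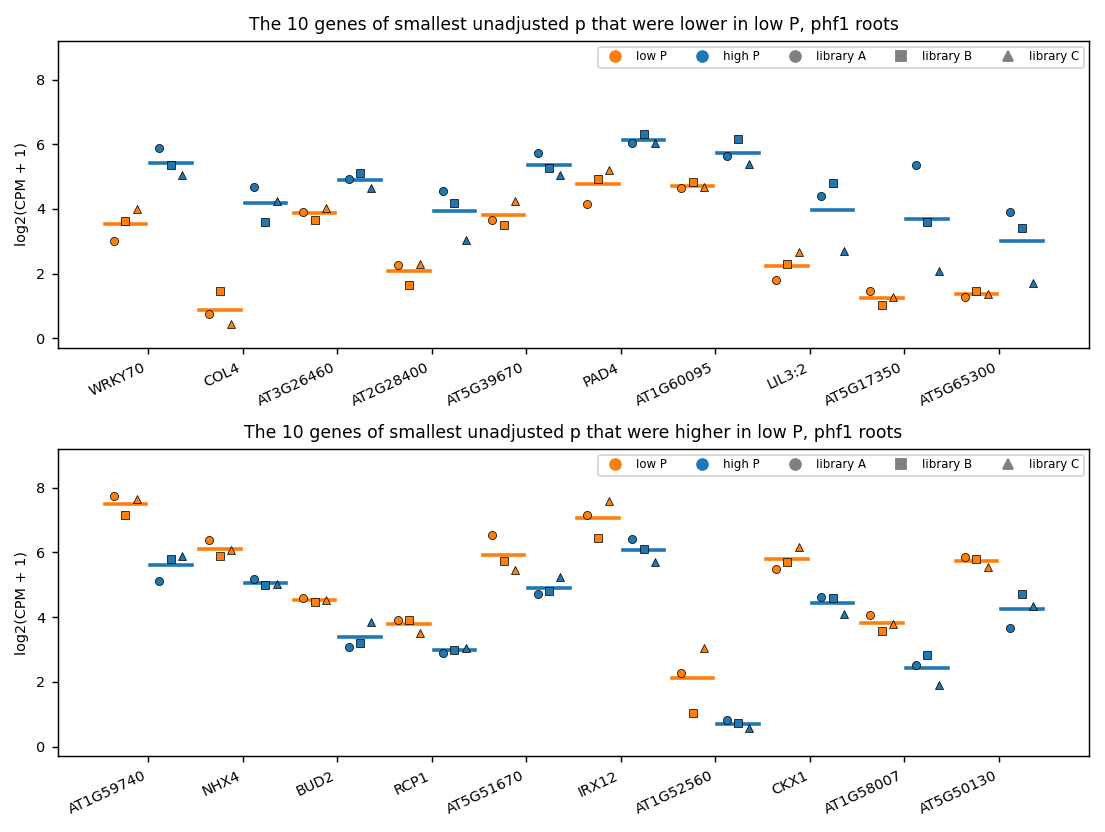
Levels of the 10 genes of smallest unadjusted p in each direction, as log2(CPM + 1), in the 3 low P (orange) and 3 high P (blue) phf1 root libraries, with bars at the group means and marker shapes for libraries A, B and C. The groups do not overlap for any of the 20 genes, which their choice by p from these libraries favours. COL4 shows the widest gap, and for LIL3:2 the nearest low P and high P libraries almost meet at 5.32 and 5.53 CPM.

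The PSR genes showed no common direction between the soils. Of 192 PSR marker genes, which the study took from earlier work, 165 were tested, and 1 further gene of that list was not analysed here. In low P 87 of these were higher and 78 lower, the median log2 fold change was 0.02, equal to that over all genes, and 2 genes were higher and 3 lower at an unadjusted p below 0.05 (edgeR). The median ran from -0.06 without low P A to 0.13 without high P B, so its sign depended on single libraries. The marker genes with the smallest p pointed both ways. AT5G63130 was at 1.06, 1.07 and 0.887 CPM under low P and 5.69, 4.87 and 1.26 CPM under high P (-1.97 ± 0.64), and AT5G40690 was lower (-1.23 ± 0.49). AT3G07350 (1.35 ± 0.56) and AT2G38740 (0.49 ± 0.22) were higher in low P, and EEL, a bZIP transcription factor, was lower (-0.96 ± 0.42).

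For sensors and regulators the soils overlapped in all 10 genes tested (median 0.03). SPX1, a common marker of Pi shortage, was at 102, 27.0 and 39.6 CPM under low P and 27.5, 106 and 40.2 CPM under high P (-0.05 ± 0.61). Low P A and high P B were thus the high libraries for SPX1, 1 from each soil. SPX2 was at 20.8 to 44.0 CPM against 16.8 to 33.7 CPM, and SPX4 at 17.8 to 35.5 CPM against 20.4 to 30.7 CPM, whereas SPX3 did not pass the filter. PHO2, an enzyme that marks Pi transporters for degradation, was at 827, 1128 and 612 CPM under low P and 1772, 461 and 1478 CPM under high P (-0.53 ± 0.43). None of the 10 was at an unadjusted p below 0.05.

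The Pi transporters overlapped between the soils as well. PHT1;1, a main transporter of Pi uptake from soil, was at 147, 21.3 and 166 CPM under low P and 47.4, 409 and 144 CPM under high P (-0.84 ± 0.92). Of its exonic 50-base stretches 42.5% occur elsewhere in the genome, so reads may be shared with a near-identical transporter gene. PHT1;4, the other main uptake transporter, was at 5.63, 0.710 and 18.5 CPM under low P and 4.36, 77.7 and 16.3 CPM under high P (-1.92 ± 1.10). High P B held the highest level of both. Without it the log2 fold change of PHT1;1 turned to 0.23, and that of PHT1;4 went to -0.24. PHT5;1, which stores Pi in the vacuole, was at 136 to 187 CPM against 114 to 150 CPM (0.29 ± 0.21). Of the 13 transport genes tested, 9 were higher and 4 lower in low P (median 0.41), with none at an unadjusted p below 0.05.

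Lipid and scavenging genes also overlapped between the soils. SQD2, which makes sulfolipid, was at 22.9, 9.24 and 17.4 CPM under low P and 9.67, 37.0 and 16.3 CPM under high P (-0.35 ± 0.49). MGD3, which makes galactolipid, was at 10.6, 1.42 and 3.55 CPM against 0.948, 7.14 and 3.52 CPM (0.39 ± 0.82). PAP17, an acid phosphatase of the PSR, was at 91.1, 55.8 and 19.5 CPM under low P and 16.5, 89.7 and 34.7 CPM under high P (0.23 ± 0.64). Low P A and high P B were again the high libraries, and the signs for SQD2, MGD3 and PAP17 each turned when 1 library was left out. Of 12 lipid genes 6 were higher and 6 lower (median 0.0019), and of 11 scavenging genes 6 were higher and 5 lower (median 0.10). PPC3, a PEP carboxylase, had the smallest p of the scavenging list and was at 22.2 to 87.8 CPM under low P and 53.9, 345 and 55.6 CPM under high P (-1.68 ± 0.89). PPC3 is also in Cluster 1, a set described below that the study chose with the phf1 low P libraries among its data.

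**Figure D2:**
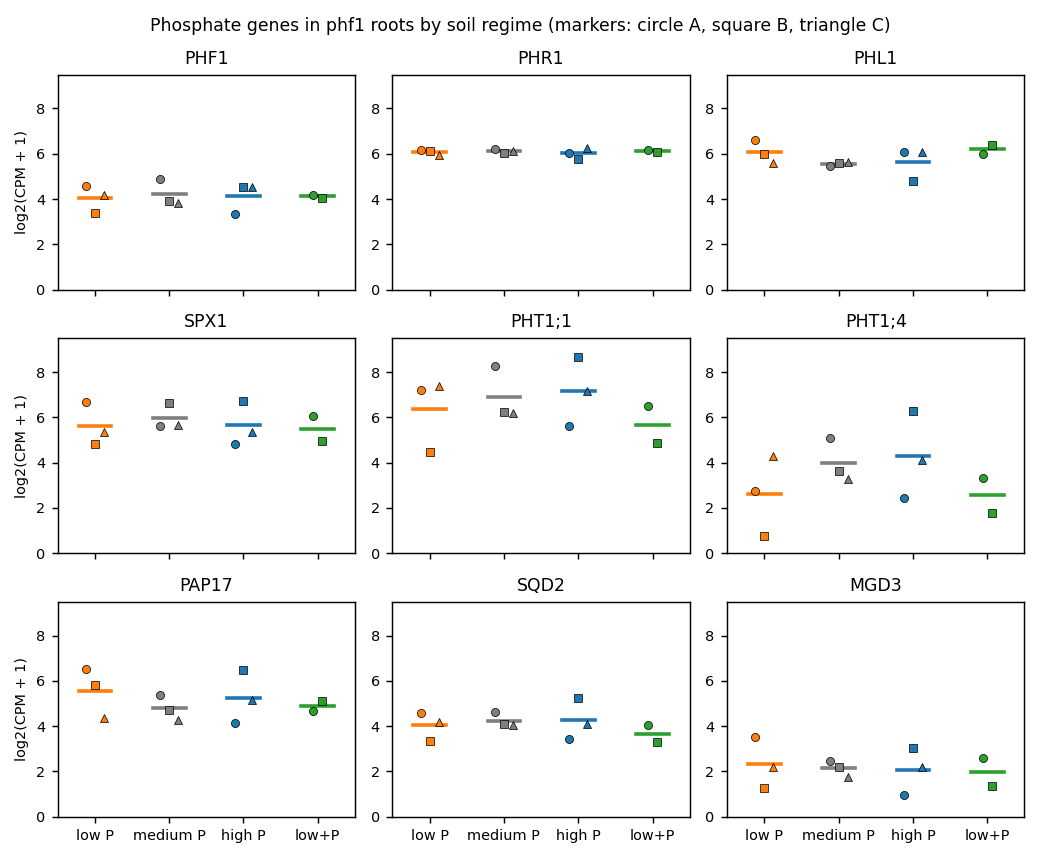
Levels of PHF1, PHR1, PHL1 and 6 PSR genes as log2(CPM + 1) in each phf1 root library of the low P, medium P, high P and low+P soils, with bars at group means. Low P and high P overlap in every panel, and for SPX1 the highest libraries of the 2 soils are at 102 and 106 CPM.

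Cluster 1 is a set of 123 genes that the study grouped by their expression in low P and low+P roots of 3 genotypes, as genes high in Col-0 under low P. The phf1 low P libraries were among those used, so their low level there and the high level in Col-0 were fixed by that choice, and the values below are a description. Of 121 members tested, 105 were lower in phf1 low P than in phf1 high P and 16 higher, and the median log2 fold change was -0.93, beside 0.02 for all genes tested. At an unadjusted p below 0.05 (edgeR) 26 were lower, or 21.5% where 1.96% of all genes were, and the low P libraries lay wholly below for 34, or 28.1% against 2.79% of all genes. In Col-0 110 of 123 were higher in low P than in high P, with a median of 1.27.

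The members differed in which high P libraries carried them. NAP, a senescence transcription factor, was at 7.39, 8.53 and 9.58 CPM under low P and 18.8, 31.6 and 29.7 CPM under high P (-1.64 ± 0.43). NIT2, a nitrilase, was at 17.9, 18.1 and 15.3 CPM against 26.2, 70.4 and 37.0 CPM (-1.39 ± 0.39). GLN1;2, a cytosolic glutamine synthetase, was at 45.4, 43.0 and 152 CPM against 93.3, 589 and 124 CPM (-1.74 ± 0.79), with overlap. The mean z score of the whole set in low P A, B and C was -0.43, -0.13 and -0.24, and in high P A, B and C it was 0.09, 1.0 and 0.56. High P B was the highest of the 6. Without high P B the median was -0.51, 91 members were lower and 10 were lower at an unadjusted p below 0.05, and without low P A that last count was 17. In the other phf1 libraries the mean z score was 1.17, -0.45 and -0.45 in medium P and -0.62 and -0.50 in low+P, so 1 medium P library stood above all high P libraries.

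Genes of other nutrients were lower or higher without passing the test. Of 21 genes of nitrogen uptake and assimilation, 14 were lower in low P (median log2 fold change -0.64), with 2 lower at an unadjusted p below 0.05, or 9.52% against 1.96% of all genes. The list includes GLN1;2 and NRT1.1, whose value is this median. Both are members of Cluster 1, so their low level in phf1 under low P was part of the study's choice of that set. NRT2.1, a high-affinity nitrate transporter, was at 11.3, 15.3 and 57.5 CPM under low P and 45.9, 354 and 47.3 CPM under high P (-2.38 ± 0.99), and 8.86% of its exonic 50-base stretches occur elsewhere in the genome. NRT2.5, the transporter for the lowest nitrate supply, had 0, 1 and 4 counts in low P and 20, 86 and 5 in high P. High P B was again the highest for both, and the NRT2.5 groups were only 1 count apart at their nearest libraries. Sulfur genes (median 0.29 over 12), ferritins (0.08 over 3) and zinc genes (0.04 over 10) had no member at an unadjusted p below 0.05. Of 15 iron genes 8 were higher (median 0.14), and IRT1, the main iron uptake transporter, had 153 counts in low P C and at most 1 in each of the other 5 libraries, so its difference rested on low P C. NAS4, which makes the metal chelator nicotianamine, was at 7.39, 11.01 and 11.2 CPM under low P and 5.50, 5.35 and 1.51 CPM under high P (1.24 ± 0.56).

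In the salicylic acid list, 11 of 16 genes were lower in low P and the median was -0.21. Low P libraries lay wholly below for 6 of the 16, or 37.5% against 2.79% of all genes, and 3 were lower at an unadjusted p below 0.05 (edgeR), or 18.8% against 1.96%. These 3 were WRKY70, PAD4 and SARD1, a transcription factor that activates salicylic acid synthesis. SARD1 was at 19.0, 19.9 and 19.0 CPM under low P and 23.5, 41.5 and 41.5 CPM under high P (-0.88 ± 0.30). The further 3 without overlap, looked up after the count was seen, were FMO1 and ALD1, enzymes of pipecolic acid metabolism in systemic resistance, and NIMIN1, a protein that binds the receptor NPR1. FMO1 was at 5.68 to 13.5 CPM under low P and 19.9 to 48.7 CPM under high P (-1.85 ± 0.99), and it is a member of Cluster 1, so its low level in phf1 under low P was part of the study's choice of that set. For the remaining members of the list the groups overlapped, among them ICS1, NPR1 and PR1. ICS1, the main enzyme of salicylic acid synthesis, was at 28.1, 222 and 43.3 CPM under low P and 64.7, 84.8 and 113 CPM under high P (0.16 ± 0.67). NPR1 was at 66.1 to 76.0 CPM against 60.3 to 77.9 CPM (0.02 ± 0.16), and PR1 was at 0 to 2.49 CPM. Low P B held the highest ICS1, and without low P B the median of the list was -1.40. With 1 library left out, that median ran from -1.40 to -0.01. The mean z score of the list was -1.06, 0.434 and -0.483 in low P A, B and C and 0.426, 0.154 and 0.918 in high P A, B and C. The soils thus overlapped for the list as a whole, because low P B lay above high P A and B.

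In the jasmonate list 10 of 16 were higher in low P (median 0.45), with 2 higher and 1 lower at an unadjusted p below 0.05, where 0.924% of all genes were higher and 1.96% lower at that p. AOC4, an allene oxide cyclase of jasmonate synthesis, was at 107, 107 and 112 CPM under low P and 82.5, 60.5 and 80.7 CPM under high P (0.55 ± 0.19), whereas its homologue AOC3 was lower (-1.06 ± 0.39). In the ethylene list 7 of 17 were higher (median -0.04), with 1 higher and 2 lower at that p. ACS7, an enzyme of ethylene synthesis, had 0, 0 and 5 counts in low P and 6, 172 and 12 in high P, with most of them in high P B. EBF1, which promotes the breakdown of transcription factors of ethylene signalling, was at 322 to 479 CPM against 206 to 350 CPM (0.57 ± 0.25). Genes of camalexin and indole glucosinolates (median -0.09 over 10) had no member at an unadjusted p below 0.05.

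Genes of root structure followed individual libraries. All 6 Casparian strip genes tested were lower in low P (median -1.51), and their summed level was 27.4, 29.1 and 99.9 CPM under low P and 62.8, 286 and 87.0 CPM under high P. The groups overlapped, because low P C lay above high P A and C. Of these genes, SGN3, a receptor kinase that controls the integrity of the barrier, was the 1 member without overlap, at 18.1 to 32.6 CPM against 35.1 to 62.4 CPM (-0.99 ± 0.39). All 9 root hair genes were lower (median -1.19), with a summed level of 7.03, 4.62 and 121 CPM under low P and 24.3, 267 and 17.6 CPM under high P. Here low P C and high P B were high and the other 4 low. RHD6, the transcription factor that starts root hair formation, was at 0.352, 0 and 3.19 CPM against 2.84, 20.1 and 3.27 CPM (-2.67 ± 1.29). All 5 cell division genes were lower (median -0.49), with CDKB2;1, a cyclin-dependent kinase of mitosis, at 2.81, 5.68 and 34.6 CPM against 30.0, 39.9 and 22.1 CPM. Of 13 suberin genes 11 were lower (median -0.40), and FAR4, a fatty acyl reductase, was at 31.6 to 33.9 CPM against 36.6 to 71.5 CPM (-0.72 ± 0.33). Low P A and B thus held low levels of these groups together, whereas low P C did not, and the part of these library differences in the gene results above was not tested.

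**Figure D3:**
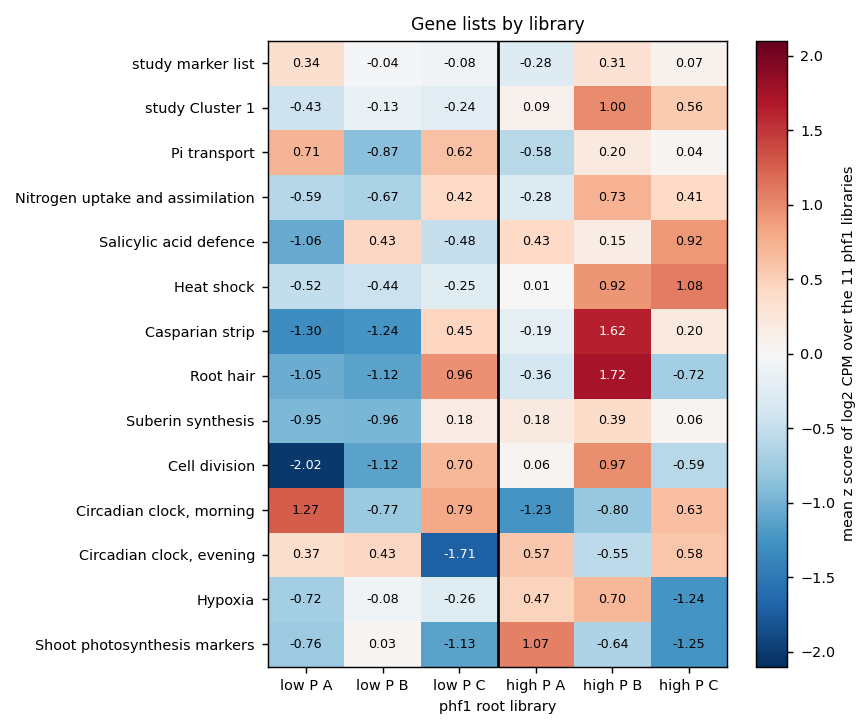
Mean z score of log2 CPM, taken over the 11 phf1 libraries, for 14 gene lists in the 3 low P and 3 high P libraries. High P B is high for Cluster 1 (1.0), Casparian strip (1.62) and root hair genes (1.72), low P A and B are low for Casparian strip and root hair genes, and high P A alone among the 6 is high for photosynthesis genes (1.07).

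Other lists named for time of day and stress also varied within a soil. The 5 morning clock genes were all higher in low P (median 1.32), but CCA1, a morning transcription factor, was at 77.0, 7.82 and 76.3 CPM under low P and 4.74, 21.6 and 36.7 CPM under high P (1.37 ± 0.96), so low P B lay among the high P libraries. Of 8 evening clock genes 6 were lower (median -0.45). The harvest was in random order, and the hour of each library is not given in the sources used here. Photosynthesis genes were lower in 19 of 24 (median -1.47), with LHCB1.3, a light-harvesting protein, at 19.0, 66.4 and 17.4 CPM under low P and 1433, 68.0 and 9.80 CPM under high P. That difference rested on high P A, and 17% of the exonic 50-base stretches of LHCB1.3 occur elsewhere in the genome. Of 5 heat shock genes 4 were lower (median -1.59). HSP70-4, a heat shock chaperone, was at 20.8, 21.0 and 18.6 CPM under low P and 26.2, 119 and 108 CPM under high P (-2.07 ± 0.59), and HSP90.1, another chaperone, was at 3.55 to 6.21 CPM against 5.31, 36.2 and 28.7 CPM (-2.14 ± 0.70). High P B and C were the high libraries for both. HSP70-4 is a member of Cluster 1, so its low level in phf1 under low P was part of the study's choice of that set. Of 12 hypoxia genes 8 were lower (median -0.35), led by SAD6, an acyl desaturase, at 1.06, 1.07 and 4.97 CPM against 17.6, 11.7 and 2.51 CPM. The members ran from -0.98 to 2.09 in the triterpene list (median -0.14 over 5), from -1.64 for NAP to 0.48 in the senescence list (-0.24 over 5) and from -6.27 to 0.89 in the abscisic acid and drought list (-0.04 over 13), where NAP was the 1 member of the 3 lists at an unadjusted p below 0.05. Only 2 flavonoid genes passed the filter, at no more than 3.60 CPM.

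**Figure D4:**
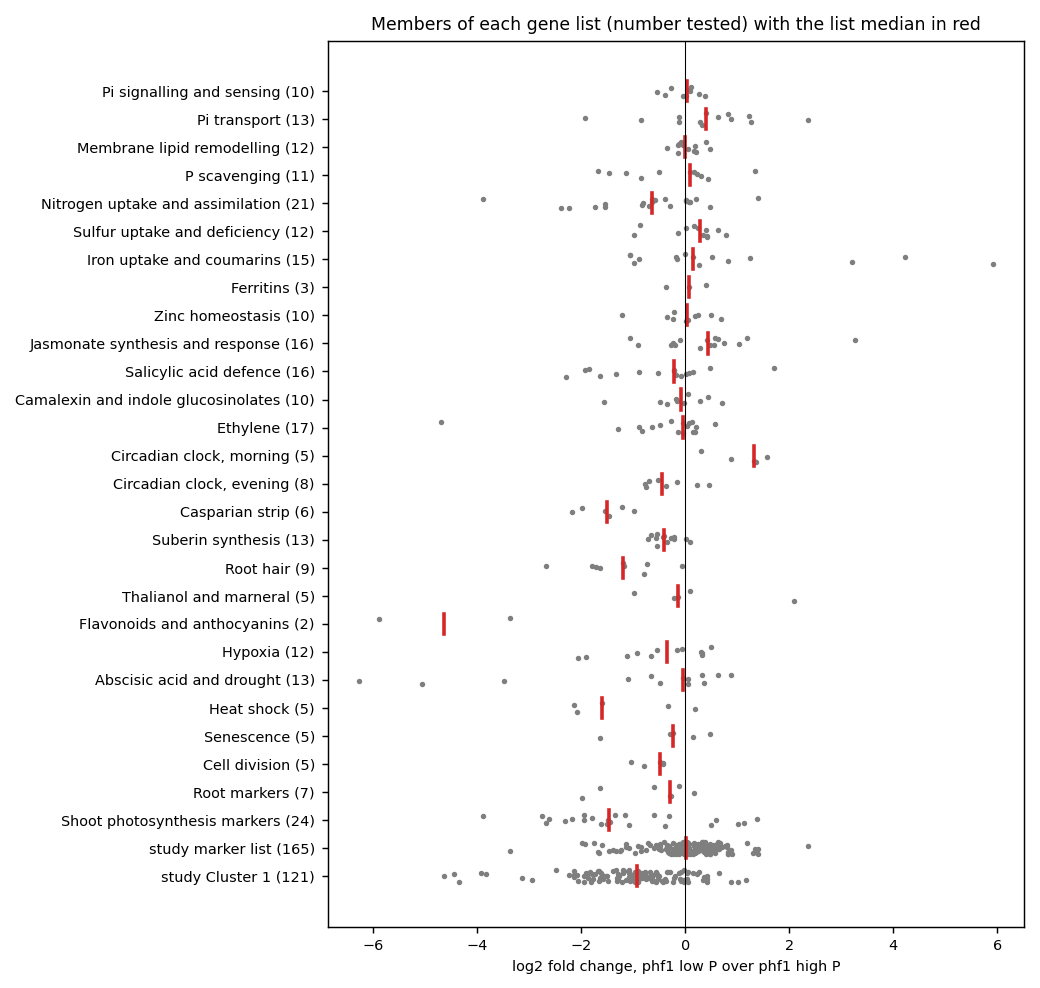
Log2 fold change (phf1 low P over high P) of each tested member of the 27 gene lists, the PSR marker list and Cluster 1, with the list median in red and the number tested in brackets. The PSR marker list is centred at 0.02, whereas Cluster 1 has a median of -0.93.

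The other phf1 regimes share the low P libraries with this comparison, so their values are given side by side only. Against medium P, edgeR called 0 genes (589 at an unadjusted p below 0.05), and against low+P also 0 (206 at an unadjusted p below 0.05). WRKY70 was at 20.4 to 33.1 CPM under medium P and 19.1 to 24.1 CPM in low+P, above every low P library and, except for medium P B at 33.1 CPM, below every high P library. COL4 was at 15.4, 21.3 and 2.76 CPM under medium P and 1.75 and 2.69 CPM in low+P, so in low+P it lay near the low P level. AT1G59740 was at 40.4, 133 and 119 CPM under medium P and 116 and 201 CPM in low+P.

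The low to high P difference was then set against that of Col-0, in 1 fit of the 22 Col-0 and phf1 libraries. The Col-0 low P and high P pots held soil from the same plots as those of phf1, and the fit treated all libraries as independent. The interaction of genotype and soil P passed edgeR's test at an adjusted p of 0.1 for 2 of 19034 genes (0.0105%), COL4 and NIT2, with 977 at an unadjusted p below 0.05 and 19 called by DESeq2. Both are members of Cluster 1, whose direction in low P the study's choice had set. In Col-0 COL4 was at 132, 101 and 6.52 CPM under low P and 0, 1.05 and 0.684 CPM under high P, the opposite order to phf1. The interaction was -11.23 on the log2 scale (adjusted p = 0.0703, edgeR). NIT2 was at 134, 89.5 and 81.9 CPM in low P roots of Col-0 and 14.5, 13.1 and 33.8 CPM in its high P roots, again opposite to phf1, with an interaction of -3.70 (adjusted p = 0.0929). NIT2 shares 5.66% of its exonic 50-base stretches with other places in the genome. Leaving out 1 of the 12 low and high P libraries of both genotypes lost the call in 10 of 12 fits for COL4 and in 9 of 12 for NIT2, and with only the 12 low and high P libraries the adjusted p was 0.299 for COL4 and 0.343 for NIT2. NAP was also lower in low P in phf1 and higher in Col-0, without passing edgeR's test (47.8, 32.6 and 62.0 CPM in low P roots of Col-0 against 1.96, 5.91 and 12.6 CPM in its high P roots, interaction -4.42, adjusted p = 0.384, edgeR), whereas DESeq2 called its interaction (adjusted p = 0.0015). AT3G55840 (interaction -3.11) and THA1, a threonine aldolase (-6.54), did not pass edgeR either (adjusted p = 0.384 for each) and were called by DESeq2 (adjusted p = 0.0177 and 0.0020). Both overlapped between the soils in phf1, AT3G55840 at 4.26 to 7.46 CPM under low P against 6.16 to 8.80 CPM and THA1 at 0.532 to 4.62 CPM against 1.52 to 9.80 CPM. THA1 and NAP are members of Cluster 1 as well, so the same choice had set their direction in low P. SPX1 was higher in low than in high P in Col-0 (117, 42.3 and 17.03 CPM against 6.67, 13.9 and 12.3 CPM) and overlapped between the soils in phf1, but that difference between the genotypes did not pass (interaction -2.45, adjusted p = 0.966, edgeR).

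**Figure D5:**
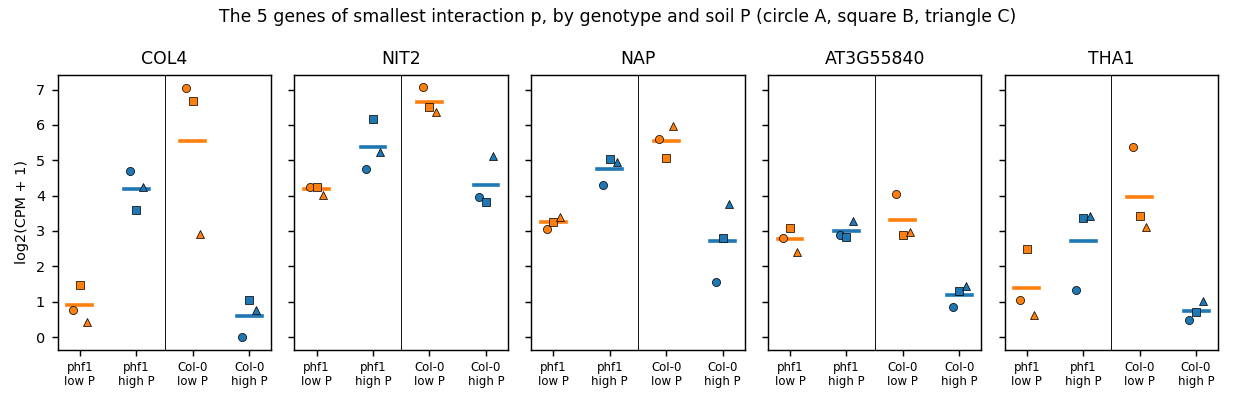
Levels of the 5 genes of smallest interaction p as log2(CPM + 1) in low P (orange) and high P (blue) roots of phf1 and Col-0, 3 libraries each, with bars at group means. COL4, NIT2 and NAP are lower in low P than in high P in phf1 and higher in low P in Col-0, and 1 Col-0 low P library holds COL4 at 6.52 CPM beside 132 and 101 CPM.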

How the data were processed

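Poly(A) RNA of Arabidopsis roots was sequenced as single-end reads without strand. The authors trimmed reads with Trimmomatic 0.36, mapped them to TAIR10 with HISAT2 2.1.0 and counted them with featureCounts, for which neither version nor strand setting is stated. The deposited values are whole-number counts for 27206 nuclear protein-coding genes, not normalized, so reads shared by near-identical genes cannot be recovered. The study's methods name a column kit for the RNA and the labels a phenol-based extraction.

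Counts were analysed with R 4.3.3, edgeR 4.0.16 and DESeq2 1.42.0. The 11 phf1 libraries in 4 groups were filtered with filterByExpr, scaled by TMM factors and put through the two-sided quasi-likelihood test of edgeR, with Benjamini-Hochberg adjustment at 0.1 and a prior count of 0.125. Standard errors (SE) were taken as the log2 fold change over the square root of F. The interaction used 22 libraries in 8 groups, from whose TMM factors the Col-0 CPM were taken. Pots are the replicates, 3 in each soil. Low P and low+P pots of phf1 shared plots, as did pots of phf1 and Col-0, and no fit took this into account. No pair of libraries agreed within sampling noise (chi-square for genes of 20 or more counts, lowest median 3.07 within a group, where sampling gives 0.455). The tests were checked on counts simulated gene by gene with known changes. Those counts lacked the patterns shared by many genes of a library that the real libraries showed, so the check does not cover such patterns. The alternatives were DESeq2, other scalings, filters, thresholds and sets of libraries, and each library left out.

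Named were PHF1, PHR1 and PHL1, the 10 genes of smallest p in each direction, up to 3 of smallest p in each list, 5 of the PSR markers, SPX1, PHT1;1, PHT1;4, PAP17, SQD2 and MGD3, and the 5 of smallest interaction p; a few others are marked as chosen after their values were seen. SPX2, SPX4, PYK10, PHO1, EXPA7, ICS1, NPR1 and PR1 are further list members given for their roles. The comparison, the lists and the rule were chosen with earlier results of these data known. Symbols came from TAIR10.1 (26719 matched), which also gave overlapping genes and repeated 50-base stretches, and no coordinates are printed.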

Additional observations from a re-analysis of the deposited data

Results flagged for a closer look

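COL4 was marked because its difference between low and high P soil was unlike in phf1 and Col-0 by edgeR's interaction test, with an interaction of -11.23 on the log2 scale. NIT2 was marked for the same reason, with an interaction of -3.70. That test asks whether the differences are unequal, not whether their directions are opposite. Neither gene passed edgeR in phf1 alone (adjusted p = 0.999 for each) or in Col-0 alone (adjusted p = 0.202 for COL4 and 0.215 for NIT2). In phf1 all 3 low P libraries lay below all 3 high P libraries for both genes, and in Col-0 all 3 low P libraries lay above all 3 high P libraries. Both genes are in Cluster 1, so their low P levels in each genotype were part of the study's choice of that set, and this order is a description. The adjusted p over the alternatives ran from 8.37e-10 (DESeq2) to 0.516 for COL4 and from 1.53e-05 (DESeq2) to 0.516 for NIT2 (otherwise edgeR).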

How the results depend on the processing

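The count of 0 called genes stayed at 0 with RLE or upper quartile factors, without a filter, with a mean of at least 1 CPM, with a robust spread, at an adjusted p of 0.05, with the 6 libraries alone, with all 25 in 1 fit and without any single library, whereas DESeq2 called 6. Genes at an unadjusted p below 0.05 numbered 309 with the 6 libraries alone and 335 to 1670 with 1 library left out. These, Cluster 1 and the salicylic acid list were followed after seeing the data. With 1 library left out, the median of the PSR markers ran from -0.06 to 0.13, that of Cluster 1 from -1.18 to -0.51 and that of the salicylic acid list from -1.40 to -0.01. The interaction count of 2 was 19 with DESeq2, 0 with the 12 libraries of low and high P, 0 at an adjusted p of 0.05 and 0 to 5 with 1 library left out. Of 112 named genes, 15 turned sign, each only when 1 library was left out. The ranges were PHF1 -0.44 to 0.14, PHR1 -0.070 to 0.18, SPX1 -0.79 to 0.73, PHT1;1 -1.30 to 0.23, PAP17 -0.33 to 1.11, SQD2 -0.69 to 0.35, MGD3 -0.59 to 1.22, PS2 -1.86 to 0.056, IRT1 -2.57 to 6.48, FER4 -0.069 to 0.17, PRR5 -0.045 to 0.74, RSL2 -7.14 to 0.35, MRN1 -6.35 to 5.22, THAH -1.72 to 0.43 and CYCB1;1 -0.94 to 0.60. The causes were not tested. No paired analysis was possible because the columns of counts carry neither a replicate number nor a plot. Genes with a few counts per library, such as COL4 in low P, are limited by depth.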
